A study of Mus musculus with 4 samples.

Results

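Oligodendrocytes of the mouse posterior hindbrain, taken with the area postrema (AP) and the nucleus of the solitary tract (NTS), were described in depth. The members are the nuclei that the deposited annotation marks as having passed quality control and as oligodendrocytes. They numbered 16816 of 39461 kept nuclei (42.6%), in 4 single-nucleus RNA-seq libraries, and the deposited clustering placed them in 13 of its 184 clusters. The clusters are named here by their deposited numbers (0 to 8, 10, 14, 25 and 26).

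The study asked how the hindbrain responds when hunger-promoting AgRP neurons are activated while satiety-promoting POMC neurons are silenced. In the AgRP-Gq;POMC-Gi mice (AgRP-IRES-Cre+/-;hM3DGqfl/-;POMC-Dre+/-;hM4DGifl/-) the recombinase Cre switches on the excitatory receptor hM3DGq in AgRP neurons, and Dre switches on the inhibitory receptor hM4DGi in POMC neurons. The control mice, called wildtype in the labels, carried the floxed receptor alleles hM3DGq fl/- and hM4DGi fl/- without Cre or Dre. All were C57BL/6 mice of both sexes, 12 to 20 weeks old, that received 3 mg/kg of the receptor ligand clozapine N-oxide (CNO) 1 h before tissue was taken, with food removed in that time. Each group had 2 libraries, called here C1 and C2 (control replicates 1 and 2) and A1 and A2 (AgRP-Gq;POMC-Gi replicates 1 and 2), and values listed for 4 libraries follow this order. The drivers AgRP and POMC are neuronal genes, and oligodendrocytes were not the targeted cells. By the methods, tissue was pooled within a condition from 2 mice per group. The methods do not say whether each library is 1 mouse or a draw from the pool. The p-values therefore measure only the spread between these libraries, which may be technical.

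Oligodendrocytes are the glia that wrap axons of the central nervous system in myelin, a stack of membrane rich in cholesterol and galactolipids and held together by proteins such as Mbp. They arise from precursor cells through a short newly formed stage and then persist as mature cells. Mature oligodendrocytes differ along a gradient: cells with high Ptgds, the prostaglandin D synthase, and Il33, a nuclear alarmin cytokine, lie toward one end, and cells with high Klk6, a secreted serine protease, and Hopx, a homeodomain cofactor, lie toward the other. Glucocorticoid hormones reach oligodendrocytes from the blood, and through their receptor raise a well known set of genes that includes Fkbp5, a co-chaperone of the receptor itself.

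The libraries differed in ways that touch the comparisons. The oligodendrocytes of a library gave 9279470 to 15080856 UMIs (unique molecular identifiers, each standing for 1 captured transcript), with a median of 2202 to 2713 UMIs and 1138 to 1421 genes per nucleus. Both AgRP-Gq;POMC-Gi libraries were shallower than both controls, with medians of 2202 and 2345 against 2713 and 2542 UMIs and totals of 9494098 and 9279470 against 15080856 and 11937908 UMIs. The replicate 2 libraries of both groups held choroid plexus nuclei (436 and 329) and the replicate 1 libraries almost none (2 and 6), and the choroid plexus transcript Ttr read 3333 and 2085 counts (UMIs) per 1000000 (CPM) in oligodendrocytes of the replicate 2 libraries against 5.97 and 24.3 CPM in the replicate 1 libraries. The female transcript Xist stood at 914, 559 and 1119 CPM in C1, C2 and A1, and at 37.0 CPM in A2, with the Y-linked Uty at 62.0, 94.7, 51.0 and 155 CPM. Xist was thus lowest and Uty highest in A2. Both transcripts were present in C1, C2 and A1, and A1 and A2 differed more in both than C1 and C2 did. A1 had the lowest summed level of 13 heat shock genes, at 975 CPM against 1531 to 1691 CPM in the others. Of the oligodendrocyte barcodes, 27 occurred in more than 1 library.

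By the methods, the cell type labels were set from expression signatures in these same nuclei. The marker levels thus describe the label and do not support it. In oligodendrocytes Mog, a surface protein of the outer myelin sheet, read 1105 ± 173 CPM (SD, n = 4 libraries), Mbp 3863 ± 246 and Mobp 1566 ± 231 CPM. A Mog UMI was present in 88.4% of oligodendrocytes, at a library median of 2202 to 2713 UMIs, and in 5.74% of oligodendrocyte precursor cells and 7.29% of neurons, which should lack the gene. Pdgfra, the receptor that marks precursors, read 1.93 CPM in oligodendrocytes and 986 CPM in the precursor cells. Markers of the newly formed stage were not shared evenly: Gpr17, Bmp4 and Neu4 stayed near 0, whereas Bcas1 and Enpp6 were present. Of the other cell types, summed levels over the whole marker list were 286 ± 43.1 CPM for 7 neuron markers, 168 ± 21.4 CPM for 6 astrocyte markers, 81.1 ± 11.4 CPM for 6 microglia markers, 10.4 ± 1.25 CPM for 4 endothelial markers and 3.11 ± 0.791 CPM for 5 Schwann cell markers, 4 of which were under 1 CPM. The Schwann cell sum was the lowest of these, which likewise describes the label and does not support it.

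The 13 clusters lay along the Ptgds to Klk6 gradient. Ordered by the summed level of the Klk6 group over that of the Ptgds group, they ran 8, 0, 7, 14, 3, 10, 1, 25, 5, 4, 2, 6 and 26. These levels are descriptions with no test, because the clusters were built from the same expression values. Ptgds was highest in clusters 8 and 10, at 6046 ± 1387 and 5997 ± 593 CPM, and read between 4317 and 4870 CPM in clusters 0, 7, 14 and 3, 1616 ± 320.3 CPM in cluster 5, and 306 ± 155 CPM in cluster 26. Klk6 took the opposite course, from 7.17 ± 2.40 CPM in cluster 8 over 16.5 ± 4.73 CPM in cluster 5 to 152 ± 18.1 CPM in cluster 6 and 145 ± 25.5 CPM in cluster 26. The largest ratio between neighbours in the order fell for both genes between cluster 5 and cluster 4, where Klk6 reached 54.9 ± 8.92 CPM and Ptgds 647 ± 125 CPM.

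**Figure D1:**
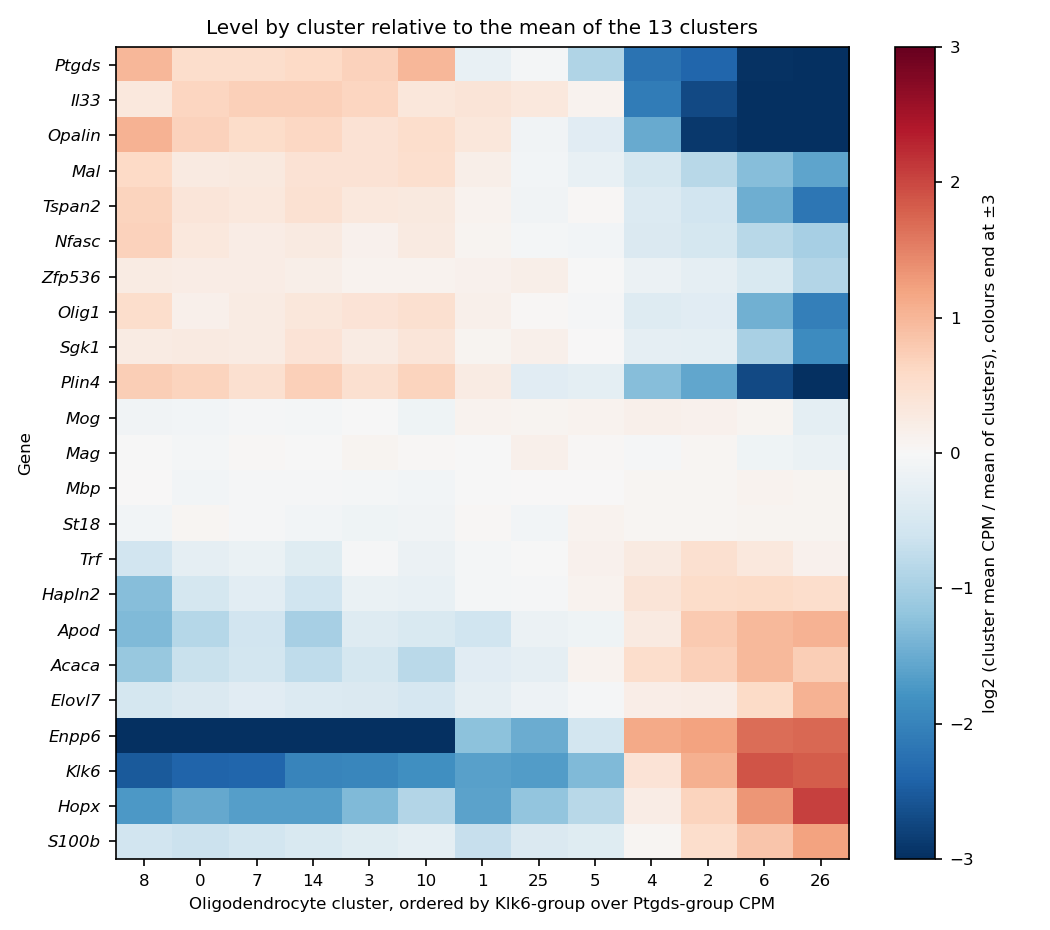
Mean CPM over the 4 libraries of 23 genes (rows) in each of the 13 oligodendrocyte clusters (columns), as the log2 ratio to the mean of the clusters, with the colour scale ending at ±3. Ptgds, Il33 and Opalin are high in the clusters on the left and Enpp6, Klk6, Hopx and S100b in the 4 clusters on the right, while Mog, Mag, Mbp and St18 are nearly even.

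The members of both groups set this order, and their levels describe it and do not support it. In the Ptgds group, Il33 stood between 621 and 951 CPM in the first 9 clusters of that order, then at 135 ± 37.9 CPM in cluster 4 and 15.3 ± 12.8 CPM in cluster 26. Grm3, a metabotropic glutamate receptor, held between 1351 and 1926 CPM in 11 clusters and was lower in clusters 6 and 26, at 644 ± 51.2 and 271 ± 50.7 CPM. Apod, an apolipoprotein placed in the Ptgds group of the marker list, ran the other way, from 357 ± 74.6 CPM in cluster 8 to 1831 ± 567 CPM in cluster 26. In the Klk6 group Hopx reached 128 ± 30.4 CPM in cluster 26 against 9.28 ± 5.41 CPM in cluster 8, and S100b, a calcium-binding protein, 324 ± 70.0 CPM against 93.2 ± 15.4 CPM. Of genes that did not set the order, Opalin, a myelin glycoprotein, went from 437 ± 75.3 CPM in cluster 8 to 6.55 ± 5.77 CPM in cluster 26. Enpp6, a choline phosphodiesterase used as a marker of newly formed cells, read 429 ± 27.0 CPM in cluster 26 against 8.88 ± 5.43 CPM in cluster 8, so that it marked the Klk6 end here, where Bcas1, another marker of that stage, was lowest (396 ± 27.3 CPM in cluster 26 against 772 ± 78.2 CPM in cluster 8).

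The clusters differed in depth, from a median of 1789 UMIs per nucleus in cluster 10 to 5067 in cluster 26, so shares of nuclei were compared after each nucleus was thinned to 800 UMIs, which every nucleus reached. A Ptgds UMI was then present in 96.4% of nuclei of cluster 8 and 21.4% of cluster 26 (unthinned 99.6% and 70.3%). For Il33 the thinned shares were 39.5% in cluster 8, 51.7% in cluster 14 and 0.376% in cluster 26, where the unthinned share was 4.89%. For Klk6 they were 0.483% in cluster 8 and 13.9% in cluster 26, and for Enpp6 0.773% and 28.6%. The order of the ends was therefore kept at equal depth for these 4 genes. Mog, for comparison, stayed between 49.6% and 61.5% in all 13 clusters.

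Myelin genes split into a core that was even and a group that followed the gradient. Over the clusters Mbp read 3626 to 4105 CPM, Mog 884 to 1202 and Mag, an adhesion protein facing the axon, 956 to 1234 CPM. By contrast Mal, a membrane protein of compact myelin, went from 909.5 ± 107 CPM in cluster 8 to 203 ± 28.1 CPM in cluster 26, the tetraspanin Tspan2 from 818 ± 107 to 116 ± 21.9 CPM, and Nfasc, a cell adhesion protein of the node region, from 1186 ± 178 to 364 ± 51.3 CPM. Hapln2, a matrix link protein found at nodes, ran the other way, from 219 ± 29.6 to 763 ± 52.9 CPM. The 17 myelin genes together summed to 14021 CPM in cluster 26 and to between 15924 and 17312 CPM in the other clusters.

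Transcription factors of the lineage declined toward the Klk6 end or were even. Olig1 read 167 ± 25.8 CPM in cluster 8 and 28.2 ± 10.3 CPM in cluster 26. Zfp536, a zinc finger repressor, read 2621 ± 337 and 1195 ± 128 CPM. Sox10, which drives myelin genes, was between 243 and 310.4 CPM in 12 clusters and at 189 ± 31.1 CPM in cluster 26. St18, also a zinc finger factor, was between 3943 and 4608 CPM throughout. Olig2 varied among libraries, with A1 at 116 CPM over all oligodendrocytes and C1, C2 and A2 at 45.7, 41.8 and 33.0 CPM.

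Several enzymes that make myelin lipids had higher levels toward the Klk6 end. Acaca, which makes malonyl-CoA for fatty acid synthesis, read 315 ± 42.9 CPM in cluster 8, 744 ± 162 in cluster 5 and 1359 ± 363 CPM in cluster 6. Elovl7, a fatty acid elongase, read 175 ± 55.6 CPM in cluster 8 and 518 ± 142 CPM in cluster 26. Gal3st1, which makes sulfatide, read 93.4 ± 19.2 and 218 ± 28.9 CPM. Not all members followed: Fasn lay between 16.3 and 31.5 CPM with no order, and Ugt8a, which makes galactosylceramide, between 531 and 699 CPM. The 17 lipid genes summed to 3909 CPM in cluster 8 and 5494 CPM in cluster 6. Transferrin (Trf) read 759 ± 143 CPM in cluster 8 and 1585 ± 118 CPM in cluster 2. The iron list summed to the least in cluster 8 (1859 CPM) and the most in cluster 2 (2876 CPM), but clusters 3 and 10 (2651 and 2574 CPM) lay above cluster 26 (2501 CPM). The chloride channel Clcn2 read 44.8 ± 7.77 CPM in cluster 8 and 134 ± 24.1 CPM in cluster 26. The 23 cholesterol genes summed to between 715 CPM in cluster 25 and 1105 CPM in cluster 26.

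Glucocorticoid-induced genes were lower toward the Klk6 end in the mean over all 4 libraries. The 18 genes of that list summed to 2770 CPM in cluster 10 and 1085 CPM in cluster 26. Sgk1, a kinase that regulates ion transport, read 554 ± 152 CPM in cluster 8 and 125 ± 70.6 CPM in cluster 26, Plin4, a lipid droplet protein, 94.7 ± 55.9 and 2.17 ± 3.29 CPM, and Hif3a, a hypoxia-inducible factor subunit, 64.4 ± 26.2 and 3.07 ± 3.62 CPM. Fkbp5 was nearly even, at 101 to 158 CPM, and Pdk4, which restrains glucose oxidation, was higher at the Klk6 end (81.8 ± 38.5 CPM in cluster 6 against 17.5 ± 10.5 CPM in cluster 8). The SDs span both groups, whose difference is described further on. The clock genes Per3 and Bhlhe41 were highest in cluster 26, at 63.8 ± 28.4 and 86.7 ± 17.5 CPM.

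Beyond the gradient, a few clusters had genes at levels far above the mean of the others. In cluster 26, the smallest with 266 nuclei, the matrix protein gene Hmcn1 read 638 ± 129 CPM and the overlapping transcript Gm20631 343 ± 40.3 CPM, against means of 0.765 and 0.170 CPM over the other 12 clusters. Sdk1, a synaptic adhesion gene, read 282 ± 94.6 CPM there and 2.68 CPM in the others. Each of these 3 genes was high in every library, with Hmcn1 at 752, 453, 667 and 681 CPM. In cluster 6 the gene of highest ratio was the transcript A530053G22Rik (782 ± 225 CPM, 8.45 times the mean of the others). It also led cluster 4 (500.0 ± 94.9 CPM, 4.31 times) and read 313 ± 77.6 CPM in cluster 26, so it was not particular to cluster 6. Rasgef1c (7.71 times), Tox3 (7.54 times) and the homeobox gene Nkx2-9 (31.7 ± 3.48 CPM, 6.79 times) came next in cluster 6. Rasgef1c differed between the groups there, at 90.7 and 61.3 CPM in the controls and 30.9 and 21.3 CPM in AgRP-Gq;POMC-Gi. It was called lower in 1 of the 3 clusters where it was tested (edgeR adjusted p = 0.00395). In cluster 8, below the transcripts 9630013A20Rik (19.4 times the mean of the others) and Gm5087 (15.2 times), Synpr, a synaptic vesicle protein, read 464 ± 106 CPM and the receptor kinase gene Kit 206 ± 50.7 CPM, 14.4 and 12.7 times. 9630013A20Rik stood at 559 and 736 CPM in the replicate 1 libraries and at 64.4 and 46.2 CPM in the replicate 2 libraries. In cluster 7 the top transcript by ratio was Gm15398 (16.6 times), which lies inside Pcdh15. Pcdh15 itself, a protocadherin, read 1142 ± 77.8 CPM, 5.23 times the others, and in cluster 1 the transcript 9330111N05Rik read 991 ± 91.4 CPM, 10.2 times, with the overlapping adhesion receptor gene Adgrv1 at 273 ± 34.3 CPM.

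Most other clusters had no strong genes of their own. Counting genes detected in 10% or more of a cluster's nuclei, cluster 26 had 605 that were more than 2-fold above the mean of the other clusters. Cluster 6 had 254, cluster 8 had 59, cluster 2 had 29, and clusters 4, 0 and 14 had 14, 12 and 11. The rest had 5 or fewer, and cluster 3 had 0 of 3304. Clusters 3 and 10 had the lowest or near lowest depth (1866 and 1789 UMIs), the highest neuron marker sums (398 and 417 CPM) and the highest median mitochondrial shares (0.354% and 0.366%). The part of depth and of RNA from other cells in these clusters was not tested. Several leading pairs overlap in the genome on opposite strands (Hmcn1 with Gm20631, Adgrv1 with 9330111N05Rik), and since the use of strand in counting was not given in the sources used here, their reads cannot be told apart.

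Every cluster was found in every library. The smallest cell was 49 nuclei, in cluster 25 of A2. Cluster 0 was the largest, with 13.8%, 12.8%, 16.2% and 12.8% of the oligodendrocytes of C1, C2, A1 and A2. Groups did not overlap in 3 clusters. Cluster 3 made up 11.1% and 13.8% in the controls and 8.16% and 10.5% in AgRP-Gq;POMC-Gi, cluster 2 11.4% and 12.8% against 10.3% and 10.3%, and cluster 6 7.35% and 7.30% against 8.31% and 8.72%. Each gave p = 0.333 in a two-sided exact permutation test over libraries, the smallest p that 2 against 2 libraries can give, and an adjusted p of 0.963 over the 13 clusters, so no change in composition could be shown by these tests.

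**Figure D2:**
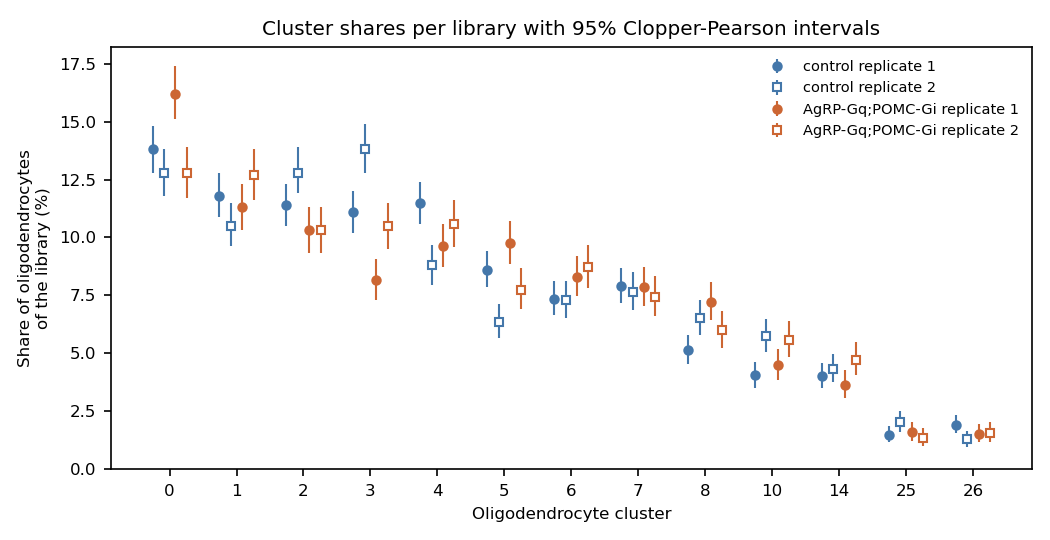
Share of the oligodendrocytes of each library (%) in each cluster, with 95% Clopper-Pearson intervals that cover counting error only. Control libraries are blue and AgRP-Gq;POMC-Gi libraries orange, and the libraries of a group often lie as far apart as the groups.

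Oligodendrocytes as a share of kept nuclei were 51.2% and 42.8% in the controls and 40.1% and 36.5% in AgRP-Gq;POMC-Gi, or 47.0% ± 5.94 against 38.3% ± 2.55 (SD, n = 2; exact permutation p = 0.333). The groups did not overlap. The number of neurons per library was 2470 and 2736 in the controls and 3696 and 3637 in AgRP-Gq;POMC-Gi, and among non-neuronal nuclei the oligodendrocyte shares overlapped, at 68.7% and 58.8% against 64.7% and 57.5% (exact permutation p = 0.667). Counting intervals were narrow, with 51.2% reaching from 50.2% to 52.2%, so the difference between libraries of 1 group was larger than counting error.

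The central comparison asked which genes differed in oligodendrocytes between AgRP-Gq;POMC-Gi and control libraries. The 14 glucocorticoid-induced genes tested had negative fold changes in AgRP-Gq;POMC-Gi. Of the whole list of 18, 8 genes, with the co-chaperone Fkbp5, the zinc finger repressor Zbtb16, the lipid droplet protein Plin4 and the NF-kappa-B inhibitor Nfkbia among them, were called lower in at least 1 cluster, against 0.986% of all genes tested in a cluster. With all oligodendrocytes of a library summed and no block for replicate number, no single gene passed the adjusted threshold. The calls came from the fits within single clusters. A block for replicate number gave 227 calls over all oligodendrocytes. No label ties same-numbered libraries together, and the values reported are those without this block. Summed counts were compared with edgeR's quasi-likelihood test and Benjamini-Hochberg adjustment over the 6646 genes detected in 5% or more of the nuclei. At an adjusted p under 0.05 it called 0 genes (0% of those tested). At an unadjusted p under 0.05, 334 genes were lower in AgRP-Gq;POMC-Gi (5.03%) and 295 higher (4.44%). The CPM of the groups did not overlap for 1550 genes lower (23.3%) and 936 higher (14.1%). DESeq2 on the same counts called 85 genes lower (1.28%) and 34 higher (0.512%). Without C1, C2, A1 or A2, the edgeR test called 3, 7, 113 and 507 genes. Lower in AgRP-Gq;POMC-Gi were 3, 7, 99 and 199 of these, so without A2 the higher calls (308) outnumbered the lower ones. In these fits the group left with 1 library is assumed to vary like the other.

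The list of 18 glucocorticoid-induced genes was written down with earlier results of these data known. Of the 14 that were tested, 14 had a fold change below 0, 10 were lower at an unadjusted p under 0.05 against 5.03% of all genes, 12 had groups that did not overlap against 23.3%, and DESeq2 called 6 lower against 1.28%. Their median log2 fold change was -0.72 and that of all genes 0.00. These counts include Pdk4, which passed the 5% filter mainly through the controls. They also include Arl4d, which read less than Pdk4 in AgRP-Gq;POMC-Gi (19.5 and 11.3 against 26.3 and 17.1 CPM). Among the 12 are Errfi1 and Ddit4, in which A1 lay just under the lower control (258 against 272 and 78.7 against 82.3 CPM). Without A2 the fold changes of Errfi1 and Ddit4 were 0.03 and -0.03. The summed level of the list was 3049 and 2775 CPM in the controls and 1845 and 1471 CPM in AgRP-Gq;POMC-Gi. The median was between -1.02 and -0.44 when each library was left out in turn. Without A2, 11 of the 14 remained below 0, and without C1, 13.

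Fkbp5 (chr17:28399094-28517527, GRCm38, minus strand) read 248 and 178 CPM in the controls and 47.9 and 72.8 CPM in AgRP-Gq;POMC-Gi. Both AgRP-Gq;POMC-Gi libraries lay below both controls, with a log2 fold change of -1.78 ± 0.20 (SE; edgeR adjusted p = 0.0703, DESeq2 adjusted p = 3.69e-16). A Fkbp5 UMI was found in 44.6% and 33.9% of oligodendrocytes of the controls and in 10.1% and 15.1% of those of AgRP-Gq;POMC-Gi. With every nucleus thinned to 800 UMIs, since depth differed between the groups, the shares were 17.7% and 12.7% against 4.28% and 5.53%. The transcript Gm22146, which lies inside Fkbp5 on the opposite strand, read 41.8, 28.0, 5.48 and 7.97 CPM in the same order. Its reads cannot be told apart from those of Fkbp5, since the use of strand was not given in the sources used here. A Gm22146 UMI was found in 11.2%, 7.02%, 1.26% and 1.92% of nuclei of C1, C2, A1 and A2, so it passed the 5% filter through the controls.

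Zbtb16 (chr9:48654297-48836222, minus strand), which encodes a zinc finger repressor, read 939 and 724 CPM in the controls and 391 and 316 CPM in AgRP-Gq;POMC-Gi, a log2 fold change of -1.17 ± 0.21 (edgeR adjusted p = 0.133, DESeq2 adjusted p = 1.04e-07), and a UMI was found in 86.8% and 78.6% against 54.8% and 51.0% of nuclei (50.5% and 42.9% against 27.3% and 22.5% after thinning). Plin4 read 85.3 and 67.3 against 20.5 and 38.5 CPM, with a log2 fold change of -1.34 ± 0.24. The gene Hdgfl2 overlaps its end on the opposite strand (72.6, 71.3, 50.8 and 51.0 CPM), and reads of the overlap cannot be told apart. Nfkbia read 67.0 and 73.9 against 34.2 and 30.3 CPM (-1.07 ± 0.14). For these genes, too, neither AgRP-Gq;POMC-Gi library reached the lower control.

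Among the remaining members, Pdk4 read 53.0 and 61.7 CPM against 26.3 and 17.1 (-1.33 ± 0.24), and Hif3a 77.1 and 63.2 against 32.0 and 45.4 (-0.82 ± 0.15). Pdk4 and Hif3a were 2 of the 6 called by DESeq2, beside Fkbp5, Zbtb16, Plin4 and Nfkbia. A Pdk4 UMI was found in 12% and 12.3% of nuclei of the controls and in 5.57% and 3.88% of those of AgRP-Gq;POMC-Gi. Pdk4 thus passed the 5% filter mainly through the controls. Sgk1 read 565 and 553 against 411 and 279 CPM (-0.62 ± 0.23), and its fold change was -0.30 without A2 and -1.03 without A1. Tsc22d3, the glucocorticoid-induced leucine zipper protein, read 166 and 182 against 114 and 142 CPM (-0.39 ± 0.10). In some members A2 alone was low: Errfi1, an inhibitor of the epidermal growth factor receptor, read 286, 272, 258 and 157 CPM, Klf9, a Krüppel-like factor, 239, 248, 244 and 167 CPM, and Ddit4, an inhibitor of mTOR signalling, 82.3, 95.7, 78.7 and 30.7 CPM. Per1, which is also a clock gene, overlapped at 35.5, 33.0, 37.3 and 27.0 CPM. Mt1, a metallothionein, read 123, 139, 93.8 and 102 CPM, and Arl4d, a small GTPase, 28.4, 29.6, 19.5 and 11.3 CPM. The 4 members below the filter were Cdkn1a, the cell cycle inhibitor p21, at 27.1 and 21.8 against 5.58 and 5.82 CPM, Mt2 and Dusp1 at 6.47 to 15.6 CPM, and Txnip, the only member with higher CPM in AgRP-Gq;POMC-Gi, at 6.43 and 7.87 against 8.11 and 9.91 CPM.

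**Figure D3:**
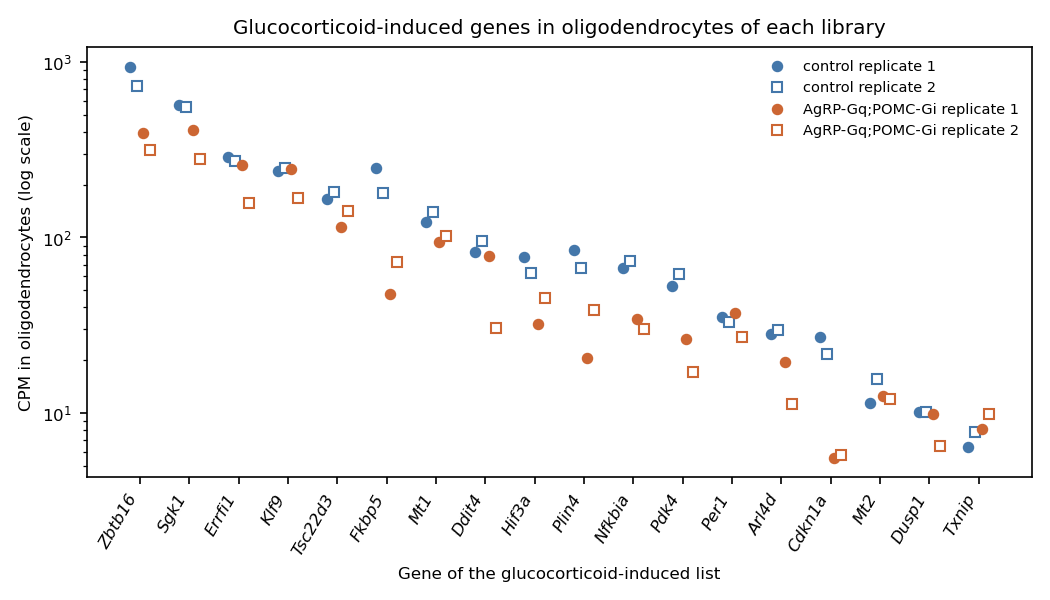
CPM in oligodendrocytes (log scale) of the 18 genes of the glucocorticoid-induced list, with 1 point per library, control libraries in blue and AgRP-Gq;POMC-Gi libraries in orange. Fkbp5, Plin4, Nfkbia, Pdk4 and Cdkn1a show the groups apart, whereas in Errfi1, Klf9 and Ddit4 only A2 lies low.

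The fold changes without A2, the library with the least Xist, were -2.01 for Fkbp5, -1.75 for Plin4, -0.94 for Zbtb16, -0.90 for Nfkbia and -0.97 for Pdk4. That of Errfi1 was 0.03. Without A1 they were -1.58 for Fkbp5, -1.02 for Plin4, -1.42 for Zbtb16, -1.24 for Nfkbia and -1.76 for Pdk4, and that of Errfi1 was -0.86. The direction of the former 5 genes did not rest on 1 library, and that of Errfi1 did.

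The stretches of 250 bases upstream of the RefSeq start (GRCm38) are shown for the 3 members of the list that were called in the most clusters and have a promoter entry, because glucocorticoid and clock factors act on regulatory sequence. Capitals mark the E-box CACGTG, which clock factors bind. Upstream of Fkbp5 (chr17:28486150-28486399, minus strand) the stretch had 68% G and C and 1 E-box, that of Plin4 (chr17:56109783-56110032, minus strand) 65.2% and none, and that of Nfkbia (chr12:55492648-55492897, minus strand) 59.2% and none.
Fkbp5: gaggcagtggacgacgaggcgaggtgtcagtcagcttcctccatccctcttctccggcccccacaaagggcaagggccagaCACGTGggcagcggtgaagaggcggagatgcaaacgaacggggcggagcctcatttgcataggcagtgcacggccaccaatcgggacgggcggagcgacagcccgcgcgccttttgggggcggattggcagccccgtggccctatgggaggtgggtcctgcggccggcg
Plin4: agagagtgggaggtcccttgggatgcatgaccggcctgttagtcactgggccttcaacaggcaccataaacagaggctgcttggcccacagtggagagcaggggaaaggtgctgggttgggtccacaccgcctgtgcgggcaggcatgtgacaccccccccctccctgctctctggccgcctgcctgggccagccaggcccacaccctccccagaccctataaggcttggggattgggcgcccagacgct
Nfkbia: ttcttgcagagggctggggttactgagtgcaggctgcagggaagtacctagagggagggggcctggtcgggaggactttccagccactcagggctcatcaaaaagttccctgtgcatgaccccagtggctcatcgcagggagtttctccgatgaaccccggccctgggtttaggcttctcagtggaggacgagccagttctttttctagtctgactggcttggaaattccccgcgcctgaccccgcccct

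Counts of motifs are given as a description with no test. The full glucocorticoid receptor element, AGAACA and TGTTCT separated by 3 bases of any kind, searched on both strands, was in none of the 3 stretches. Over the promoter entries of 250 bases before to 50 after the start, it was in 3 of 27025 genes (0.0111%), and in 1 of the 17 list genes with an entry (5.88%). CACGTG, which reads the same on both strands, was in 2187 of 27025 genes (8.09%), in 4 of the 17 (23.5%), and in 11 of the 101 genes with an entry that were called in at least 1 cluster (10.9%). Elements farther from the start were not searched.

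Other genes with the smallest p in oligodendrocytes were mostly lower in AgRP-Gq;POMC-Gi and belonged to no list. Of the 20 with the smallest unadjusted p, which all missed the adjusted threshold, 19 were lower and 18 had an edgeR adjusted p of 0.0703. Fam214a read 267 and 245 CPM in the controls and 127 and 133 CPM in AgRP-Gq;POMC-Gi (log2 fold change -0.92 ± 0.10). Rhoj, a small GTPase, read 229.7 and 211 against 106 and 97.7 CPM (-1.05 ± 0.12), and Zfand4, a zinc finger protein, 192 and 136 against 57.1 and 53.2 CPM (-1.51 ± 0.18). Sgk3 (chr1:9798107-9900845, plus strand), a kinase related to Sgk1 that acts downstream of phosphoinositide 3-kinase, read 609.8 and 441 against 223 and 229 CPM (-1.16 ± 0.17, adjusted p = 0.121). Aff1, a subunit of the super elongation complex, read 106 and 107 against 50.7 and 43.0 CPM, and Lrrc8a, the core of the volume-regulated anion channel, 41.6 and 40.5 against 19.4 and 19.1 CPM. The gene that was higher was Cdh11, a cell adhesion cadherin, at 72.2 and 69.2 against 122 and 126 CPM (0.87 ± 0.10). In each of these genes the libraries of a group lay closer to each other than to those of the other group. Rp9 and 9530077C05Rik, both among the 20, overlap on opposite strands, and their reads cannot be told apart.

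No gene of myelin passed the adjusted threshold in the fit of all 4 libraries without a block for replicate number. Of the 17 tested, 0 were lower and 1 was higher at an unadjusted p under 0.05, against 5.03% and 4.44% of all genes, which was Opalin (147 and 178 against 252 and 201 CPM, 0.55 ± 0.18, edgeR adjusted p = 0.395), and the median log2 fold change was 0.06. Their summed levels were 16288, 16889, 16396 and 16349 CPM. Mbp read 3758 and 3800 against 4224 and 3671 CPM, so the groups overlapped. Mog read 973 and 1005 against 1355 and 1089 CPM (0.37 ± 0.19) and Mobp 1727 and 1801 against 1361 and 1373 CPM (-0.31 ± 0.14), with edgeR adjusted p of 0.624 and 0.583. With 1 library left out, Mog was at 0.60 without A2 (edgeR adjusted p = 0.0318) and 0.11 without A1 (0.68), and Mbp at 0.30 without A2 (0.0432) and -0.07 without A1 (0.755).

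Of the 17 genes of myelin lipid synthesis, 1 was lower and 3 were higher at an unadjusted p under 0.05, against 5.03% and 4.44% of all genes, with a median log2 fold change of -0.01. The higher ones were Elovl7 (212 and 214 against 282 and 302 CPM, 0.51 ± 0.09), Ugt8a (543 and 508 against 661 and 777 CPM, 0.50 ± 0.12) and Aspa, which releases acetate from N-acetylaspartate (845 and 854 against 946 and 1131 CPM, 0.34 ± 0.13), and the lower one was Acaca (958 and 815 against 634 and 613 CPM, -0.45 ± 0.15). None passed the adjusted edgeR threshold over all oligodendrocytes, and DESeq2 called Elovl7 and Ugt8a (adjusted p = 0.0121 and 0.011), where it called 0.512% of all genes higher. The 14 cholesterol genes tested held 0 at an unadjusted p under 0.05 and had a median of 0.13. Of 10 lineage transcription factors tested, 2 were higher at an unadjusted p under 0.05 (4.44% of all genes), Nkx2-2 (18.4 and 19.9 against 40.4 and 31.4 CPM, 0.97 ± 0.19) and Sox10 (223 and 228 against 263 and 379 CPM, 0.55 ± 0.13). DESeq2 called both (adjusted p = 0.00173 and 0.0245, with 0.512% of all genes called higher). The Sox10 value rested in part on A2, without which it was 0.37. Within single clusters edgeR called Sox10 higher in 2 and Nkx2-2 and Elovl7 in 1 each. In all, 46 of the 9228 genes tested in a cluster were called higher.

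In the remaining lists no member passed the adjusted threshold over all oligodendrocytes without a block for replicate number. Several lists had members at an unadjusted p under 0.05. Of all 6646 genes tested, 334 were lower and 295 higher at that unadjusted threshold. Of 8 tested genes of axon support and channels, 2 were lower and 2 higher, and the median log2 fold change was -0.06. Of 4 tested genes of the Dbp and Per group of the clock, 2 were lower, against 5.03% of all genes: Nr1d2, a nuclear receptor repressor (54.4 and 57.2 against 36.5 and 42.2 CPM), and the PAR bZIP factor Tef (78.5 and 84.7 against 64.0 and 55.8 CPM). Of the study's 10 immediate early genes, 2 passed the filter, and Jun read 21.4 and 26.6 against 40.2 and 28.8 CPM (0.60 ± 0.23, edgeR adjusted p = 0.491). The Jun fold change lay between 0.24 and 0.9 over the alternatives. The 9 heat shock genes tested were all below 0 in fold change, with 0 at an unadjusted p under 0.05, and A1 was the low library in Hsp90ab1 (497, 519.6, 292 and 535 CPM). Among markers of other cells, Slc1a3, an astrocyte glutamate transporter, was higher at an unadjusted p under 0.05 (90.0 and 89.1 against 134 and 123 CPM, 0.58 ± 0.12). DESeq2 also called Slc1a3 higher, as it did 0.512% of all genes, and edgeR called it higher in 1 cluster. The 6 astrocyte markers summed to 149.9 and 149 against 187 and 186 CPM. Of the other 5 markers, Slc4a4 read 18.6, 20.3, 17.8 and 18.9 CPM, Gja1 13.5, 14.7, 13.1 and 14.7 CPM, and Agt, Aqp4 and Gfap between 2.21 and 13.7 CPM, and in none of the 5 did A1 and A2 exceed C1 and C2. The neuron marker sum was 254 and 300.1 against 248 and 339.9 CPM, so the groups overlapped. Of the 3 neuron markers tested, 2 were higher at an unadjusted p under 0.05. These were Meg3 (95.4 and 117 against 116 and 155 CPM, 0.40 ± 0.13) and Syt1 (21.7 and 25.8 against 25.3 and 33.2 CPM, 0.35 ± 0.14). In both the groups overlapped, and Snap25 was at -0.18. With a block for replicate number Meg3 passed the adjusted threshold (edgeR adjusted p = 0.026). The part of RNA from other cells in the group differences was not tested.

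Within single clusters the same test gave calls. Over the 13 clusters there were 336 calls of 137 genes, 91 of them lower and 46 higher in AgRP-Gq;POMC-Gi, and no gene was called in both directions. The counts were highest in cluster 1 with 57 genes (0.919% of those tested there), cluster 3 with 51 (0.89%), cluster 7 with 45 (0.752%) and cluster 5 with 44 (0.642%). Next came cluster 6 with 36 (0.46%), cluster 4 with 33 (0.466%), cluster 14 with 23 (0.408%), cluster 0 with 18 (0.288%) and cluster 8 with 13 (0.211%). The fewest calls came from cluster 2 with 9 (0.128%), cluster 26 with 4 (0.0451%), cluster 10 with 3 (0.0539%) and cluster 25 with 0 (0%). In cluster 25, where edgeR called none, DESeq2 also called 0 and 385 genes had an unadjusted p under 0.05. The clusters of 1 library come from the same tissue and preparation, so a gene called in many clusters was not found independently in each.

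The calls concentrated on few genes. Of the 137, 67 were called in 1 cluster and 21 in 5 or more, 19 of these lower and 2 higher. Fkbp5 was called in 12 of 13 clusters, with log2 fold changes from -2.72 to -1.56 in these, and was below 0 in the remaining cluster 25 (-1.11 ± 0.42, edgeR adjusted p = 0.778). In cluster 26 it read 194 and 191 CPM in the controls and 30.8 and 24.3 CPM in AgRP-Gq;POMC-Gi. Zfand4 was called in 11 clusters (-2.48 to -1.15 over all 13), Zbtb16 in 10 (-1.91 to -0.93 over all 13), and Sgk3 and the actin regulator Enah in 9 each. Rhoj was called in 8, Fam214a and Plin4 in 7, and Aff1, Arid5b, Gm22146, Htra1 and Map7d2 in 6. The genes called higher in 5 clusters were Cdh11 (0.39 to 1.01 over the 13 clusters) and the transcript Gm36855 (0.26 to 0.94). Of the glucocorticoid list, 8 of the 15 members tested in a cluster were called in at least 1, all lower, against 91 of all 9228 genes tested in a cluster (0.986%), with Nfkbia in 4, Pdk4 in 3, Errfi1 in 2, and Hif3a and Cdkn1a in 1 beside the 3 named. The median of the list was below 0 in each cluster, from -0.89 in cluster 3 to -0.49 in cluster 5.

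**Figure D4:**
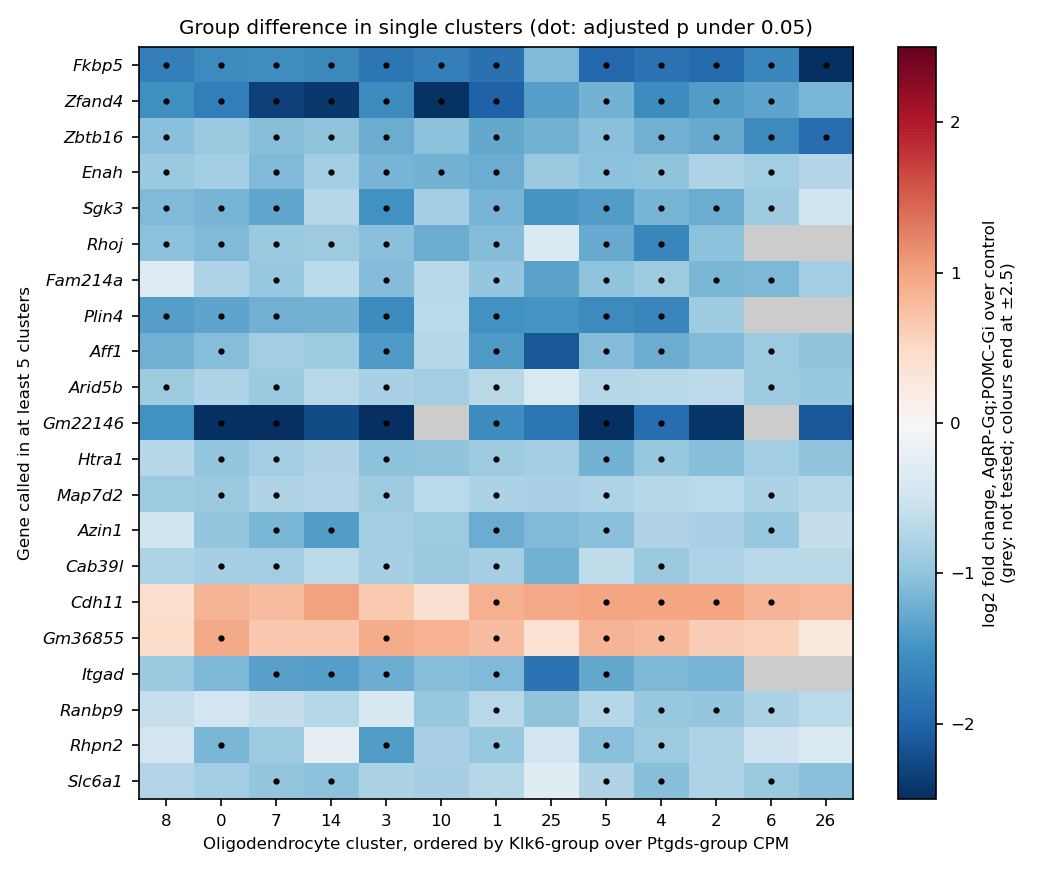
Log2 fold change of AgRP-Gq;POMC-Gi over control in each cluster for the 21 genes called in at least 5 clusters, with a dot where the adjusted p is under 0.05 and grey where the gene was not tested. All tested values of 19 genes are below 0 and those of Cdh11 and Gm36855 above 0.

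The cluster calls depended on the libraries. They numbered 98 without C1, 209 without C2, 1341 without A1 and 2503 without A2, and 69, 139, 285 and 261 of the 336 calls were among them. The balance of direction also depended on A2: 261 of the 336 calls were lower, but without A2 956 were lower and 1547 higher, whereas lower calls prevailed in the other 3 fits (76, 174 and 1062). Fkbp5 was called in 8, 12, 12 and 12 clusters in these fits, Zfand4 in 4, 11, 12 and 10, Zbtb16 in 4, 8, 13 and 12, and Cdh11 in 1, 0, 5 and 6. DESeq2 gave 20 higher and 118 lower calls summed over the clusters, in which a gene counts once per cluster.

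Whether the group difference itself varied among clusters was tested with the library as a block, and 17 of 6646 genes (0.256%) passed an adjusted p under 0.05. Errfi1 had the smallest (edgeR adjusted p = 0.00044), with log2 fold changes from -0.98 in cluster 10 to 0.13 in cluster 26. In cluster 10 it read 329 and 317 CPM in the controls and 219.5 and 105 CPM in AgRP-Gq;POMC-Gi, and in cluster 26 144 and 219 against 209 and 156 CPM. Acaca (edgeR adjusted p = 0.000559) went from -0.15 in cluster 14 to -0.69 in cluster 26. In cluster 6 Acaca stood at 1765 and 1566 against 1069 and 1036 CPM. The groups overlapped in clusters 3, 14 and 25, with cluster 14 at 478 and 394 against 417 and 345 CPM, and were apart in the other 10, cluster 8 with the lowest level included (369 and 328 against 274 and 288 CPM). Zbtb16 (edgeR adjusted p = 0.000692) went from -0.93 in cluster 0, at 1052 and 814 against 522 and 416 CPM, to -1.91 in cluster 26, at 509 and 350.3 against 140.3 and 79.9 CPM. Sgk3 (edgeR adjusted p = 0.00814) ran from -1.52 in cluster 3 to -0.49 in cluster 26, where it read 389 and 325 against 246 and 243 CPM, and Cdh8, a cadherin, from 0.09 in cluster 26 to 1.48 in cluster 8. Acaca, Zbtb16 and Errfi1 thus differed in opposite ways toward the Klk6 end: the former pair had their largest fold change there and Errfi1 its smallest.

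Of these genes Errfi1 passed the threshold in all 4 fits with a library left out (edgeR adjusted p = 0.0024 to 0.0323). Acaca passed in 3 and gave 0.105 without A1, and Zbtb16 passed in 3 and gave 0.211 without C1. Sgk3 passed in 1 of the 4, without C2, and gave 0.778 without C1, 0.44 without A1 and 0.108 without A2. Cdh8 also passed in 1, without A2 (0.000376), and gave 0.154 without C1, 0.421 without C2 and 0.607 without A1. The number of genes that passed was 8 without C1, 11 without C2, 6 without A1 and 21 without A2.

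**Figure D5:**
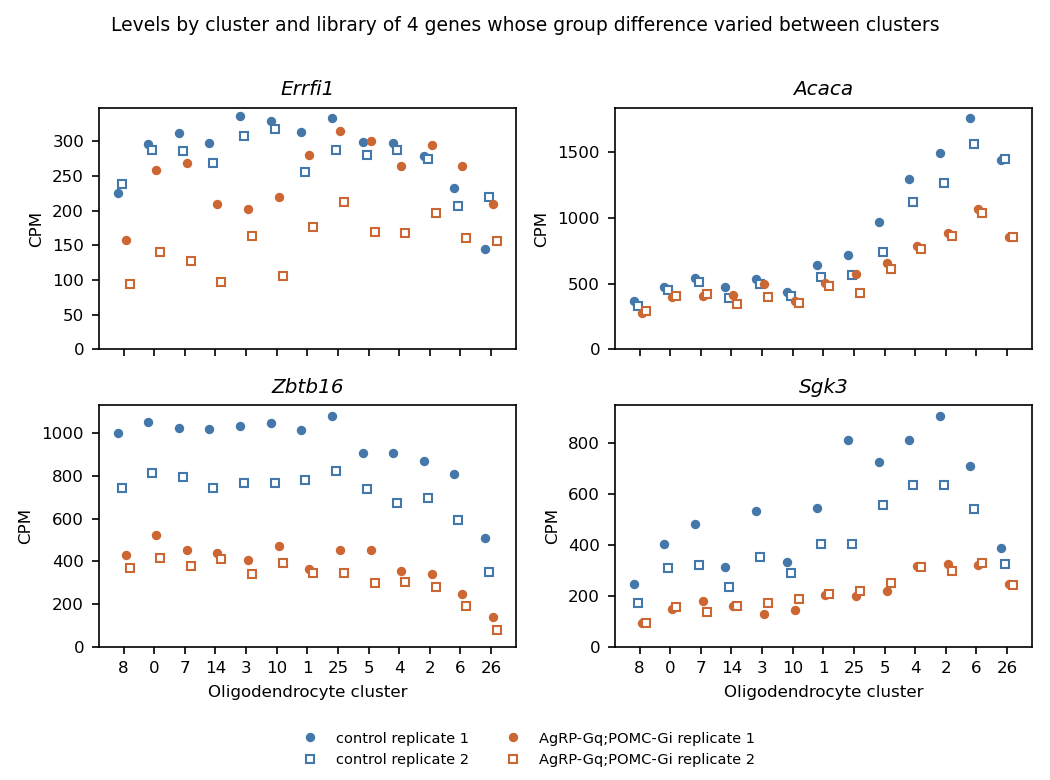
CPM by cluster and library of Errfi1, Acaca, Zbtb16 and Sgk3, the clusters in the order of the gradient, control libraries in blue and AgRP-Gq;POMC-Gi libraries in orange. In Acaca the groups lie apart in 10 of 13 clusters, widely so in clusters 6 and 26, in Zbtb16 they are apart in every cluster, and in Errfi1 A2 is the lowest library in 12 of 13 clusters.

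The group difference in oligodendrocytes was compared with that in astrocytes and neurons of the same libraries. Against astrocytes, 14 of 6002 genes (0.233%) differed at an adjusted p under 0.05, 9 of them with the lower value in oligodendrocytes. Fkbp5 had a negative fold change in both cell types and was called lower in astrocytes, where it read 275 and 178 CPM in the controls and 24.5 and 28.9 CPM in AgRP-Gq;POMC-Gi (log2 fold change -3.04 ± 0.21), so that the difference was 1.27 ± 0.15 (edgeR adjusted p = 0.0221). Sgk3 read 51.1 and 48.1 against 48.4 and 56.1 CPM in astrocytes, where the groups overlapped, and the difference was -1.27 ± 0.15 (adjusted p = 0.021). Enah differed by -0.87 ± 0.11 (adjusted p = 0.0221) and Smox, spermine oxidase, by -1.06 ± 0.11 (adjusted p = 0.021). Zbtb16 read 278 and 270.4 against 133 and 126 CPM in astrocytes (-1.04 ± 0.12), and no difference from oligodendrocytes was shown (-0.14, adjusted p = 0.852). In the fit of astrocytes alone 53 of 8462 genes were called (0.626%), and the glucocorticoid list had a median of -0.46 over 14 tested members, with 12 below 0 and 3 called lower. The 14 differences became 24, 34, 0 and 190 without C1, C2, A1 and A2.

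Against neurons, 45 of 6312 genes (0.713%) differed, 33 with the lower value in oligodendrocytes. In the fit of neurons alone 0 of 12115 genes were called (0%), with 667 at an unadjusted p under 0.05 in either direction. The median of the 11 glucocorticoid genes tested was -0.35, with 9 below 0 and 6 lower at an unadjusted p under 0.05. Cdh11 read 85.2 and 83.2 CPM in neurons of the controls and 80.3 and 83.7 CPM in those of AgRP-Gq;POMC-Gi, and the difference from oligodendrocytes was 0.84 ± 0.07 (edgeR adjusted p = 0.0193). Fam214a differed by -0.84 ± 0.07 (adjusted p = 0.0193), Arid5b by -0.84 ± 0.09 and Enah by -1.01 ± 0.11 (both 0.0204), and Fkbp5, at 43.3 and 36.8 against 27.4 and 27.0 CPM in neurons, by -1.28 (0.0401). Of the 45 genes, 15 were over 5 times higher in oligodendrocytes, and their level in neurons was low. Ugt8a was among them, at 23.2 and 22.1 against 15.4 and 18.9 CPM in neurons. Mbp read 55.4 ± 15.8 CPM in neurons (SD, n = 4 libraries), with a UMI in 34.1% of them, and the part of oligodendrocyte RNA in neurons in these differences was not tested. The 45 became 0, 10, 249 and 194 without C1, C2, A1 and A2.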

How the data were processed

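Nuclei of the dissected hindbrain were sorted by DRAQ5, a DNA dye, and sequenced by 10x 3′ chemistry. Per the labels and the study's methods, the authors aligned reads with Cell Ranger 7.0.0 to GRCm38 and used Seurat 4.3.0, kept nuclei with at least 800 UMIs, 500 genes and at most 10% mitochondrial reads, removed doublets, and clustered on an embedding adjusted for sample. The deposited values are raw counts (UMIs per gene and nucleus), and the deposited annotation gave cell types and clusters. The UMI and gene totals equalled the annotation's in 44303 of 44303 barcodes.

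Counts were summed per library, and per library and cluster, and the library was the replicate (2 per group). CPM are UMIs per 1000000. Genes detected in 5% or more of the nuclei were tested with edgeR 4.0.16 (R 4.3.3, limma 3.58.1; TMM factors, quasi-likelihood), with DESeq2 1.42.0 as an alternative, and p-values were adjusted over all genes tested (Benjamini-Hochberg, threshold 0.05). Differences between clusters or cell types were tested as interactions with the library as a block. Shares were compared by exact permutation, with 95% Clopper-Pearson intervals. Intervals cover counting error only. Tables and figures were made with Python 3.11.15. Positions are from GENCODE M21 (GRCm38), which held 32158 of 32285 genes, and promoters from RefSeq (GRCm38). Positions and sequence on some chromosomes are not reported here. On simulated data for the comparison of all oligodendrocytes, 100% of 200 genes changed 2-fold were called, with 5 false calls among 6646 genes. Every simulated gene had the same spread, and the libraries of a group differed only in size. The simulation therefore does not show that 2-fold changes would be called in the real libraries.

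As no gene passed over all oligodendrocytes, the genes named were the 20 of smallest p, list members that were called or had the highest CPM, the 5 genes of highest ratio in each cluster, up to 3 called genes of smallest p per cluster, and the 8 of smallest p in each interaction. The genes called in 5 or more clusters, and other list members given with values, were named after their values were seen. The members and lists were chosen with earlier results of these data known. Alternatives changed the normalization, filter, tool, block and libraries.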

Additional observations from a re-analysis of the deposited data

Results flagged for a closer look

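The group effect differed between oligodendrocyte clusters, by the interaction test with edgeR's Benjamini-Hochberg adjusted p, for 8 genes with the smallest p: Errfi1 (0.00044), Acaca (0.000559), Zbtb16 (0.000692), the transcript Gm17231 (0.0018), Gpatch8 (0.00557), the axon guidance receptor Robo1 (0.00814), Sgk3 (0.00814) and Cdh8 (0.00814). With each library left out in turn, Errfi1 passed the threshold in all 4 fits and Gpatch8 in none.

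Between oligodendrocytes and astrocytes the log2 group effects, oligodendrocytes minus astrocytes, differed by -1.06 for Smox, -0.95 for Phyhd1, -1.27 for Sgk3, -1.35 for Efhd1, 1.27 for Fkbp5, -0.87 for Enah, 0.97 for the calpain Capn2 and 0.78 for Garem1. Between oligodendrocytes and neurons they differed by 0.84 for Cdh11, -0.84 for Fam214a, 0.85 for Ugt8a, -1.01 for Enah, -0.67 for Csnk1g3, -0.69 for Ranbp9, -0.84 for Arid5b and -0.82 for C2cd2. Enah was 1 of 8 genes that passed in both comparisons, with Sgk3, Smox, Phyhd1, Arid5b, 9530077C05Rik, Galnt16 and Fkbp5, and its CPM was 388, 383, 381 and 384 in neurons of control replicates 1 and 2 and AgRP-Gq;POMC-Gi replicates 1 and 2, and 430.0, 366, 209 and 185 in oligodendrocytes.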

How the results depend on the processing

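With 2 libraries per group, counts of calls depended strongly on the settings. Over all oligodendrocytes, where edgeR called 0 genes, DESeq2 called 119, no filter on genes gave 358, edgeR's filterByExpr 26, and leaving out 1 library 3 to 507. It called 0 without TMM factors, with a 10% filter and with a robust estimate of the spread, the last chosen after seeing the data. Over the single clusters, with 336 calls, DESeq2 gave 138, no filter 747, and leaving out 1 library 98 to 2503. Adjusting over all 13 clusters together, also chosen after seeing the data, gave 267. The 17 genes that differed between clusters became 6 to 21 without 1 library. The 14 that differed from astrocytes became 32 without TMM factors, 23 with a 10% filter and 0 to 190 without 1 library, and the 45 that differed from neurons 0 to 249. The difference in the oligodendrocyte share, -8.7 percentage points, was -2.65 among non-neuronal nuclei and -12.9 to -4.5 without 1 library. Apart from these construction differences, the cause was not tested.

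No label ties same-numbered libraries to a shared animal, litter or day. The replicate 2 libraries of both groups held choroid plexus nuclei, and over 2 pairs the deviations of same-numbered libraries correlated at 0.34, and a replicate block raised the calls to 227 over all oligodendrocytes and 954 over the clusters. Under the block 9 of the 14 glucocorticoid genes tested were called lower, against 152 of all 6646 genes. Of the 17 myelin genes 1 was called higher, against 75 of all 6646 genes. For the genes named, 1088 values under alternatives kept their side of the threshold and 181 passed it where the reported value had not. Of 86 named genes, 24 changed sign under at least 1 alternative, among them Errfi1 and Klf9, which were called lower without AgRP-Gq;POMC-Gi replicate 1 only. Depth limits genes below the 5% filter, which were not tested.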
